A study of Mus musculus with 12 samples.

Results

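Hearts of the severe MHC-CELFΔ line were compared with hearts of wild type littermates born in the same line. The comparison uses 6 of the 12 arrays in the series, 3 of severe line transgenic females and 3 of their own wild type littermates, chosen by the line and the genotype in the sample labels and not by any measured value. All 6 hearts were taken from FVB/N females aged 3 weeks, and total RNA of whole hearts was measured, with 3 females in each group. The transgenic mice belong to line MHC-CELFΔ-10, which expresses a nuclear dominant negative CELF protein in heart muscle after birth from the mouse α-myosin heavy chain promoter, whereas the littermates lack the transgene. Because the severe line is 1 line, effects of where its transgene inserted cannot be told apart from effects of the protein. The other 6 arrays, 3 of the mild line MHC-CELFΔ-574 and 3 of its own wild type littermates (same strain, sex and age), lent their spread to the test and serve below only to ask where the changes of the lines differ.

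CELF proteins are RNA-binding proteins that choose exons during splicing, and in the heart they take part in the switch from fetal to adult splice forms after birth. Heart muscle contracts when calcium released from the sarcoplasmic reticulum binds troponin on the actin filament and myosin pulls on it. The fuel for this work comes mainly from fatty acid oxidation in mitochondria, which takes over from glycolysis as the newborn heart matures. Many genes of the contractile apparatus are switched on by serum response factor (SRF), a transcription factor that binds a short DNA element called the CArG box. FHL2 and HOPX are known to restrain SRF. Strained hearts often return in part to the fetal set of contractile proteins, raise natriuretic peptides and deposit matrix.

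Values are given as log2 signal from the authors' normalized table. All 12 arrays had the same median in it, 6.58, and the same lowest value, 5.85, so a level near 6.5 is not distinguishable from the bulk of dim probes. Pearson's r between any pair of the 6 arrays over all features was between 0.9868 and 0.9931 (15 pairs). Before normalization the 3 severe line arrays had median intensities of 116.2 to 118.8 and the littermate arrays 103.0 to 109.0, so the groups did not overlap in raw brightness. Where the raw intensities were only scaled to a common median, the median change over the brightest 5% of features moved from -0.004 to -0.261. Many, though not all, of the counts and calls that depend on this are marked below. Xist was at 8.39 to 9.56 on the 6 arrays, and the Y-linked genes Eif2s3y and Kdm5d were at 6.29 to 6.61, the level of dim probes, as the female label requires. The insulin gene Ins2 was at 11.38 on the array of littermate 1, against 7.34 and 8.18 on the other littermate arrays and 6.37 to 7.23 on the severe line arrays, and its difference was not called (adjusted p = 0.096).

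The severe line hearts differed from their littermates in many genes by small amounts. At an adjusted p under 0.05 (limma, Benjamini-Hochberg over 30854 features, a feature being 1 probe or several with identical values), 754 features were called, which is 2.44% of those tested. Of them 404 were higher (1.31%) and 350 were lower (1.13%). Most of these changes were well under 2-fold. Only 31 features, 0.1% of all, passed the 2-fold rule of the study's methods, and 30 of those 31 were higher. A further 112 lay between 1.5-fold and 2-fold (79 higher, 33 lower), 454 between 1.25-fold and 1.5-fold (216 higher, 238 lower) and 157 below 1.25-fold (79 higher, 78 lower). Rises thus made up nearly all changes past 2-fold in the deposited values, against 23 of 35 under scaling to a common median (12 lower) and 29 of 34 against the 6 pooled wild type arrays (5 lower), while below 1.5-fold rises and falls were about equally many in the deposited values. The median size was 1.36-fold among the higher and 1.31-fold among the lower features, and the smallest change called was 1.15-fold. On 402 of the 404 higher features and all 350 lower ones the 3 severe line values lay apart from the 3 littermate values, where 7.44% of all features did so in the higher direction and 8.13% in the lower. Calls came mostly from bright features: of 4 groups of equal size by mean level, 8.49% of the brightest were called, against 1.17%, 0.0778% and 0.0389% of those below it in order. The number of calls fell to 435 without the array of severe line mouse 1. With raw intensities scaled to a common median it was 1257, of which 172 were higher and 1085 lower, so the balance of rises and falls depends on the scaling. Of 2685 genes with several features 115 had a call, on all features in 7 and on only some in 108, with no opposite calls. A change named from 1 feature may thus not hold on a gene's other features. In whole hearts, more cells of a type and more RNA per cell cannot be told apart.

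**Figure D1:**
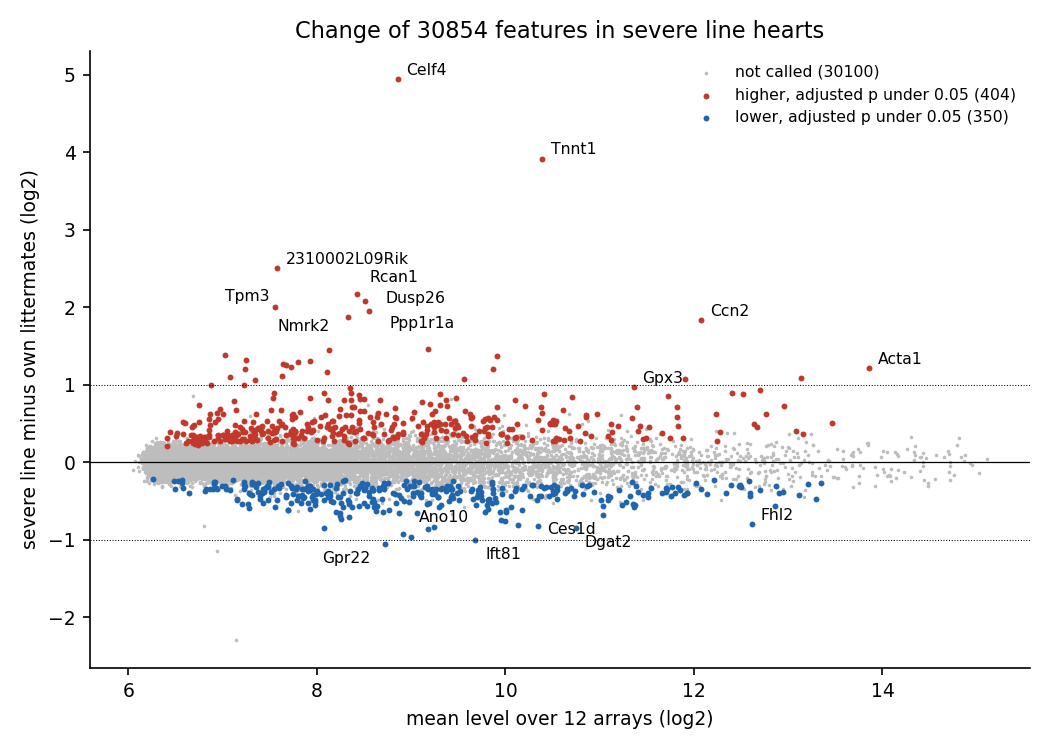
Change of each of 30854 features in severe line hearts against their own littermates (y axis, log2) by its mean level over 12 arrays (x axis, log2), with the 404 higher features in red, the 350 lower ones in blue and dotted lines at 2-fold. The called rises reach far past 2-fold while the called falls end near it, and most colored points lie within the dotted lines.

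Celf4 was read first, as the CELF gene with the largest change. The files do not pair any of its probes with the transgene. One of its 4 features, ILMN_1215837, read 6.36, 6.21 and 6.43 on the littermate arrays and 11.20, 11.02 and 11.63 on the severe line arrays. It was 4.95 ± 0.11 higher (log2 difference ± SE, n = 3 and 3; adjusted p = 2.0e-12), the largest difference among all features. The littermate values lie at the level of dim probes, so the 30.9-fold of the deposited values depends on the background, and the log2 difference was 6.75 with an offset of 16 in the background correction of the raw intensities. The other 3 Celf4 features stayed between 6.48 and 6.74 on all 6 arrays. Whether ILMN_1215837 reads the transgene or the mouse's own Celf4 was not tested, and it separated the 3 arrays labeled transgenic from the 3 labeled wild type. Of the other family members, Celf1 (8.36 to 8.68) and Mbnl1 (10.38 to 10.68) were measured well above the array median and differed by -0.12 and -0.09 (adjusted p = 0.608 and 0.723), and among the 9 CELF and MBNL genes measured Celf4 alone was called. Among 71 other splicing regulators 1 was higher and 1 was lower, and under median scaling 0 were higher and 3 lower.

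After Celf4, the largest change was in a contractile isoform. Tnnt1, which encodes the troponin T of slow skeletal muscle and of the fetal heart, read 9.17, 8.79 and 9.01 in the littermates and 13.05, 12.72 and 12.94 in the severe line. The groups were apart by many times their spread, with a difference of 3.92 ± 0.14 (15.1-fold, adjusted p = 6.2e-10). Tpm3, a slow muscle tropomyosin, read 6.98, 7.05 and 7.07 in the littermates and 9.14, 8.84 and 9.14 in the severe line on feature ILMN_2443164, a difference of 2.0 ± 0.076 (4.01-fold, adjusted p = 7.0e-10). A second Tpm3 feature, ILMN_2435584, was 1.45 ± 0.056 higher, and the third, ILMN_2426965, differed by 0.19 with an adjusted p of 0.206, so the rise was not seen on every Tpm3 sequence of the array. Tpm2, the tropomyosin of slow and smooth muscle, went from 7.57 to 7.74 in the littermates to 8.56 to 9.10 in the severe line (1.16 ± 0.10, adjusted p = 1.7e-05).

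Acta1, the skeletal muscle α-actin that the fetal heart also makes, was already bright at 13.37, 13.09 and 13.01 in the littermates and reached 14.51, 14.31 and 14.31 in the severe line. The difference of 1.22 ± 0.094 (2.33-fold, adjusted p = 3.4e-06) left no overlap. Myl1, a fast skeletal myosin light chain, was 0.88 ± 0.12 higher on its brightest feature (adjusted p = 9.6e-04). Myh7, the slow β-myosin heavy chain, was chosen for mention after its values were seen: it stood at 6.71, 6.64 and 6.70 in the littermates, close to the array median, and at 7.18, 7.11 and 7.32 in the severe line (0.52 ± 0.082, adjusted p = 0.00217). Of 21 fetal and skeletal muscle isoforms measured, 7 were higher and 1 was lower at the brightest feature of each gene, with a list median of 0.075 beside -0.002 over all 19013 genes, of which 3.43% were called. The other 13 did not pass, among them Tnnt3, Tnni1, Tnnc2 and Mylpf, which lay at the level of dim probes. The list member that fell was Tnni2, the fast skeletal troponin I, at -0.60 ± 0.12 (adjusted p = 0.0134), a call lost without severe line mouse 3 (adjusted p = 0.0645) or littermate 1 (adjusted p = 0.0613).

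None of the 12 adult heart filament genes was called. The list median was 0.016 and turned to -0.256, with 3 lower, where arrays were only scaled to a common median. Tnnc1, the cardiac troponin C, read 15.06, 15.02 and 15.12 in the littermates and 14.83, 15.02 and 14.95 in the severe line (adjusted p = 0.328). Myl3, a ventricular myosin light chain, differed by 0.09 with an adjusted p of 0.633. Myh6, the α-myosin heavy chain whose promoter drives the transgene, was at 13.81 to 13.88 in the littermates and 13.72 to 13.84 in the severe line.

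**Figure D2:**
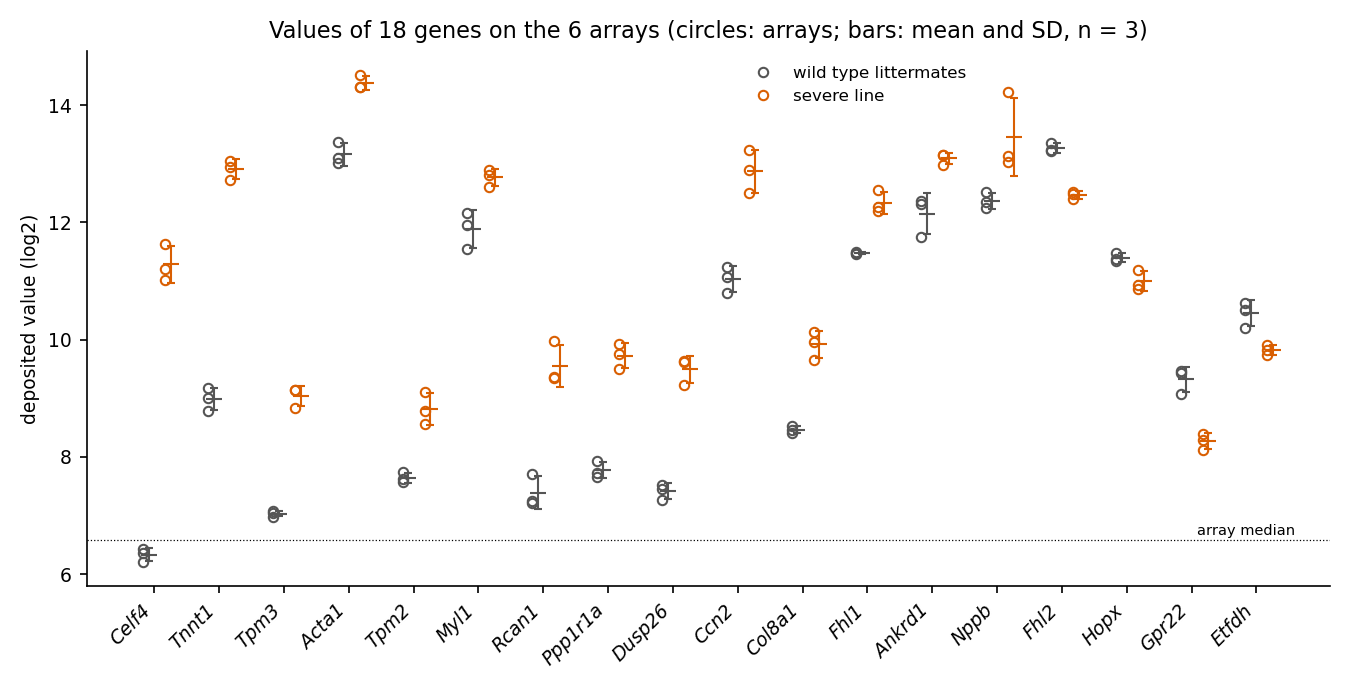
Deposited log2 values of 18 genes on the 6 arrays, littermates in gray and the severe line in orange, with circles for arrays and bars for the mean and SD (n = 3). Circles of the groups do not overlap for any gene shown, and the gap is widest for Celf4 and Tnnt1 and narrow for Hopx.

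The study drew a network of 12 genes around SRF from these same samples, so its counts here are not independent evidence of a direction. Of the 12, 7 were higher, 2 were lower and 3 did not pass, with a median of 0.802. The higher members besides Acta1 and Tpm2 were Ccn2, Rcan1, Fhl1, Nppb and Casq1. Fhl1, a LIM protein of the sarcomere, was tight in the littermates at 11.46, 11.49 and 11.47 and reached 12.55, 12.26 and 12.19 in the severe line (0.86 ± 0.10, adjusted p = 2.6e-04). Casq1, the calsequestrin of fast skeletal muscle, had overlapping groups, 9.14, 8.40 and 8.68 against 9.49, 9.87 and 9.09, and barely passed (0.74 ± 0.19, adjusted p = 0.0498). It did not pass without severe line mouse 1 (adjusted p = 0.146), severe line mouse 2 (0.169), littermate 2 (0.168) or littermate 3 (0.127).

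Both members that fell, Fhl2 and Hopx, are known as restraints on SRF. Fhl2 read 13.36, 13.23 and 13.21 in the littermates and 12.39, 12.48 and 12.52 in the severe line on feature ILMN_2770386. Its difference was -0.80 ± 0.070 (1.74-fold lower, adjusted p = 1.2e-05), and a second feature, ILMN_1213912, was at -0.50 (adjusted p = 0.0259), a call lost without severe line mouse 1 (0.131), severe line mouse 3 (0.0893) or littermate 3 (0.101). Hopx fell less, from 11.48, 11.34 and 11.37 to 10.87, 11.19 and 10.93 (-0.40 ± 0.088, adjusted p = 0.0227), and its call was lost without severe line mouse 1 (adjusted p = 0.123), severe line mouse 3 (0.0956), littermate 1 (0.0934) or littermate 3 (0.0518). Srf itself read 9.14, 9.36 and 9.29 in the littermates and 9.40, 9.22 and 9.43 in the severe line, an overlap with a difference of 0.09 (adjusted p = 0.813). The early response genes Fos and Egr1 were not called either (0.39 and 0.63, adjusted p = 0.556 and 0.104), and Fos groups overlapped.

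The CArG box was searched for in RefSeq promoter windows of build GRCm38.p6, from 250 bases before to 50 bases after each start, as CC, then 6 bases of A or T, then GG on either strand. Such windows were at hand for 15207 of the 19013 measured genes. A box lay in the window of 254 of them (1.67%), of 11 of 265 genes called higher (4.15%), of 7 of 253 called lower (2.77%) and of 5 of the 10 network members with a window. The network was drawn around SRF and holds known targets of it, so its share of boxes is not independent of that choice. Windows of 30 bases around the boxes are shown for these 5 network members and for Egr2, the early response gene that was called. Each is written on the strand of its gene with the box in capitals, 2 boxes where a gene has 2. They lie at chr8:123894829-123894858 (Acta1, minus strand), chrX:56779571-56779600 (Fhl1, plus), chr1:43163973-43164002 and chr1:43196838-43196867 (Fhl2, minus, at 2 separate starts), chr5:77115187-77115216 (Hopx, minus), chr17:46556205-46556234 and chr17:46556225-46556254 (Srf, minus, overlapping), and chr10:67537484-67537513 and chr10:67537787-67537816 (Egr2, plus).
Acta1: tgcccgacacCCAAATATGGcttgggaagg
Fhl1: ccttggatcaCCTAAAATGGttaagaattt
Fhl2: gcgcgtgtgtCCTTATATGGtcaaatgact
Fhl2: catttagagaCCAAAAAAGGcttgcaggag
Hopx: taacccgagtCCAAATAAGGaagctgggga
Srf: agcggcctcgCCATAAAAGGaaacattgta
Srf: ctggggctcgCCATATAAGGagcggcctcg
Egr2: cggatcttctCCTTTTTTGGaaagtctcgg
Egr2: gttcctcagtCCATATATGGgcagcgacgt
The box was thus found in network members that rose (Acta1, Fhl1), that fell (Fhl2, Hopx) and that did not pass (Srf). A match is a run of letters and was not tested as a binding site.

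Shares of windows with 9 other elements were computed in the same way, as descriptions without a test. The MCAT element (CATTCC), a muscle element, was in 20.8% of the windows of higher genes, 16.2% of lower ones and 15.1% of all. The AP-1 element (TGACTCA or TGAGTCA) was in 7.55%, 3.56% and 5.39%. The ETS element (CCGGAAG) was in 11.3% of higher, 19.0% of lower and 13.8% of all windows, and the MEF2 element, by name, in 3.02%, 3.95% and 3.10%. The GATA element (AGATAA) was in 8.68% of higher, 8.30% of lower and 10.9% of all windows, and the NFAT element (GGAAA) in 62.6%, 60.9% and 64.0%. For the E-box (CANNTG) the shares were 74.0%, 70.4% and 71.5%, and for the ERR and NRF1 elements, by name, 1.51% and 0.755% of higher, 1.58% and 2.37% of lower and 1.13% and 1.6% of all windows.

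A wider list of 27 SRF cofactors and targets outside the study's network was written with earlier results of these data known. It held 5 higher members and none lower (18.5% called, beside 3.43% of all genes). The higher members were Des, Zyx, Actn1, Tagln and Acta2. The list median was 0.080 and turned to -0.008 where arrays were only scaled to a common median, with 1 call then. Des, the intermediate filament protein desmin, read 12.40, 12.85 and 12.42 in the littermates and 13.46, 13.18 and 13.20 in the severe line (0.73 ± 0.11, adjusted p = 0.00133). Actn1, a non-muscle α-actinin, rose from 9.54, 9.67 and 9.49 to 10.28, 10.0 and 10.11 (adjusted p = 6.4e-04). Under median scaling Des, Zyx and Actn1 were still higher but did not pass (adjusted p = 0.138, 0.181 and 0.137). Acta2 was 0.39 higher (adjusted p = 0.0385) and did not pass on leaving out any 1 of the arrays except severe line mouse 2 (adjusted p = 0.0938, 0.094, 0.11, 0.0845 and 0.0854). Among 25 immediate early genes Egr2 alone passed, at 6.95, 7.03 and 7.0 against 7.45, 7.32 and 8.07 (0.62 ± 0.15, adjusted p = 0.0351). Its call was lost without severe line mouse 1 (0.0513), severe line mouse 3 (0.063) or any 1 littermate (0.108, 0.0699 and 0.0848).

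At the Z-disc, the plate that anchors the filaments, 8 of 35 measured genes were higher, 1 (Fhl2) was lower and 26 did not pass. The called share was 25.7%, beside 3.43% of all genes, and the median was 0.135. Calls were more frequent among bright genes: of the 2556 above the 90th percentile of brightness, 152 were higher and 176 lower. Under scaling to a common median the list's median became -0.002, with 2 higher and 4 lower. Ankrd1, a stretch-responsive partner of titin, read 12.37, 12.32 and 11.75 in the littermates and 12.98, 13.15 and 13.14 in the severe line (0.94 ± 0.16, adjusted p = 0.00403), but did not pass under that scaling (0.0627). Synpo2l, an actin-binding protein of the Z-disc, was 0.82 ± 0.13 higher (adjusted p = 0.00234) with no overlap. Pdlim1, which links α-actinin to signaling, rose from a mean of 10.94 (SD 0.12) to 11.74, 11.44 and 11.78 (adjusted p = 5.1e-04, and 0.0668 under median scaling). The other members called higher were Fhl1, Des, Ankrd23, Xirp2 and Pdlim7.

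Calcium handling genes were called in both directions. Of 25 sarcoplasmic reticulum genes, 4 were higher and 2 were lower (24% called, beside 3.43% of all genes), with a median of -0.038. On leaving out 1 array 2 to 3 were higher and 0 to 2 lower, and under median scaling 1 was higher and 6 were lower (median -0.097). With an offset of 16 in the background correction 1 was higher and 0 were lower. Sypl2 (mitsugumin 29), a membrane protein of the skeletal muscle triad, rose from 6.83, 6.98 and 7.0 to 8.45, 8.18 and 8.12 (1.32 ± 0.094, adjusted p = 1.3e-06). Its smallest rise among the alternatives was 0.50. Fkbp1a, which binds the ryanodine receptor, was 0.47 ± 0.075 higher (adjusted p = 0.0027, and 0.207 under median scaling). Ryr2, the calcium release channel of heart muscle, read 10.23, 10.25 and 10.14 in the littermates and 9.79, 9.95 and 9.89 in the severe line. Its difference of -0.33 ± 0.074 (adjusted p = 0.0262) did not pass without severe line mouse 1 (0.132), severe line mouse 3 (0.068), littermate 1 (0.0836) or littermate 2 (0.0867). Hrc, a calcium-binding protein of the reticulum, was at -0.38 (adjusted p = 0.0222) and passed only without severe line mouse 2 or littermate 2 among the runs that left out 1 array, the others giving 0.0932, 0.105, 0.0976 and 0.0741. Pln, the brake on the calcium pump, was 0.49 lower without passing (adjusted p = 0.057). The pump Atp2a2 was level on its brightest feature, 14.66, 14.49 and 14.57 against 14.44, 14.57 and 14.59.

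Signaling genes around calcium and phosphorylation held some of the largest rises, each of them 1 of few calls in its list. Rcan1, an inhibitor of the calcium-dependent phosphatase calcineurin that is itself induced by calcineurin, read 7.22, 7.71 and 7.24 in the littermates and 9.36, 9.34 and 9.97 in the severe line on feature ILMN_1259180. It was 2.17 ± 0.20 higher there (4.5-fold, adjusted p = 1.7e-05) and 1.37 ± 0.14 higher on its brighter feature, yet among 27 calcineurin, NFAT and calmodulin kinase genes it was the only one called, with 4 others lower under median scaling. Ppp1r1a, an inhibitor of protein phosphatase 1, rose from 7.73, 7.93 and 7.66 to 9.76, 9.50 and 9.92 (1.95 ± 0.10, 3.88-fold, adjusted p = 3.3e-08), the only call among 42 regulators of that phosphatase. Dusp26, a dual-specificity phosphatase that acts on MAP kinases, went from 7.27, 7.46 and 7.52 to 9.64, 9.23 and 9.61 (2.08 ± 0.11, 4.22-fold, adjusted p = 4.0e-08). Among 24 such phosphatases 1 other, Dusp28, was called, at -0.29 (adjusted p = 0.0189), and this call was lost without severe line mouse 2 (0.0654), severe line mouse 3 (0.059) or littermate 3 (0.065). Mapk12, a p38 MAP kinase abundant in skeletal muscle, rose from 7.97, 7.93 and 7.90 to 8.64, 8.61 and 8.63, a small change of 0.69 ± 0.064 that stood far outside a narrow spread (adjusted p = 2.1e-05). Mylk2, the skeletal muscle myosin light chain kinase, was 0.47 higher (adjusted p = 2.5e-04) with no overlap.

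The channels of the heart's action potential were called in the lower direction only. Of 34 potassium, sodium and pacemaker channel genes none was higher and 3 were lower, Kcnv2, Scn4b and Abcc9 (8.82% called, beside 3.43% of all genes). On leaving out 1 array at a time 0 to 3 of the channel genes were lower, and under median scaling 6 were. With an offset of 16 in the background correction 0 were called. Kcnv2, a silent potassium channel subunit, read 7.58, 7.93 and 8.04 in the littermates and 7.12, 7.36 and 7.37 in the severe line (-0.57 ± 0.12, adjusted p = 0.0171). The call was lost without severe line mouse 1 (0.0955), littermate 2 (0.0609) or littermate 3 (0.0741). Scn4b and Abcc9 were at -0.43 and -0.27 (adjusted p = 0.0296 and 0.0473), and they lost their calls on leaving out 4 and 5 of the 6 arrays in turn. At the intercalated disc, which joins heart muscle cells, Dsg2 was the only call of 20, a desmosomal cadherin at 8.09, 8.29 and 8.11 against 7.83, 7.70 and 7.84 (-0.37 ± 0.068, adjusted p = 0.00719, and 0.0626 with an offset of 16 in the background correction). The 19 genes of the dystrophin complex and caveolae gave none. Under median scaling 3 genes were lower in the intercalated disc list and 3 in the dystrophin and caveolae list.

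**Figure D3:**
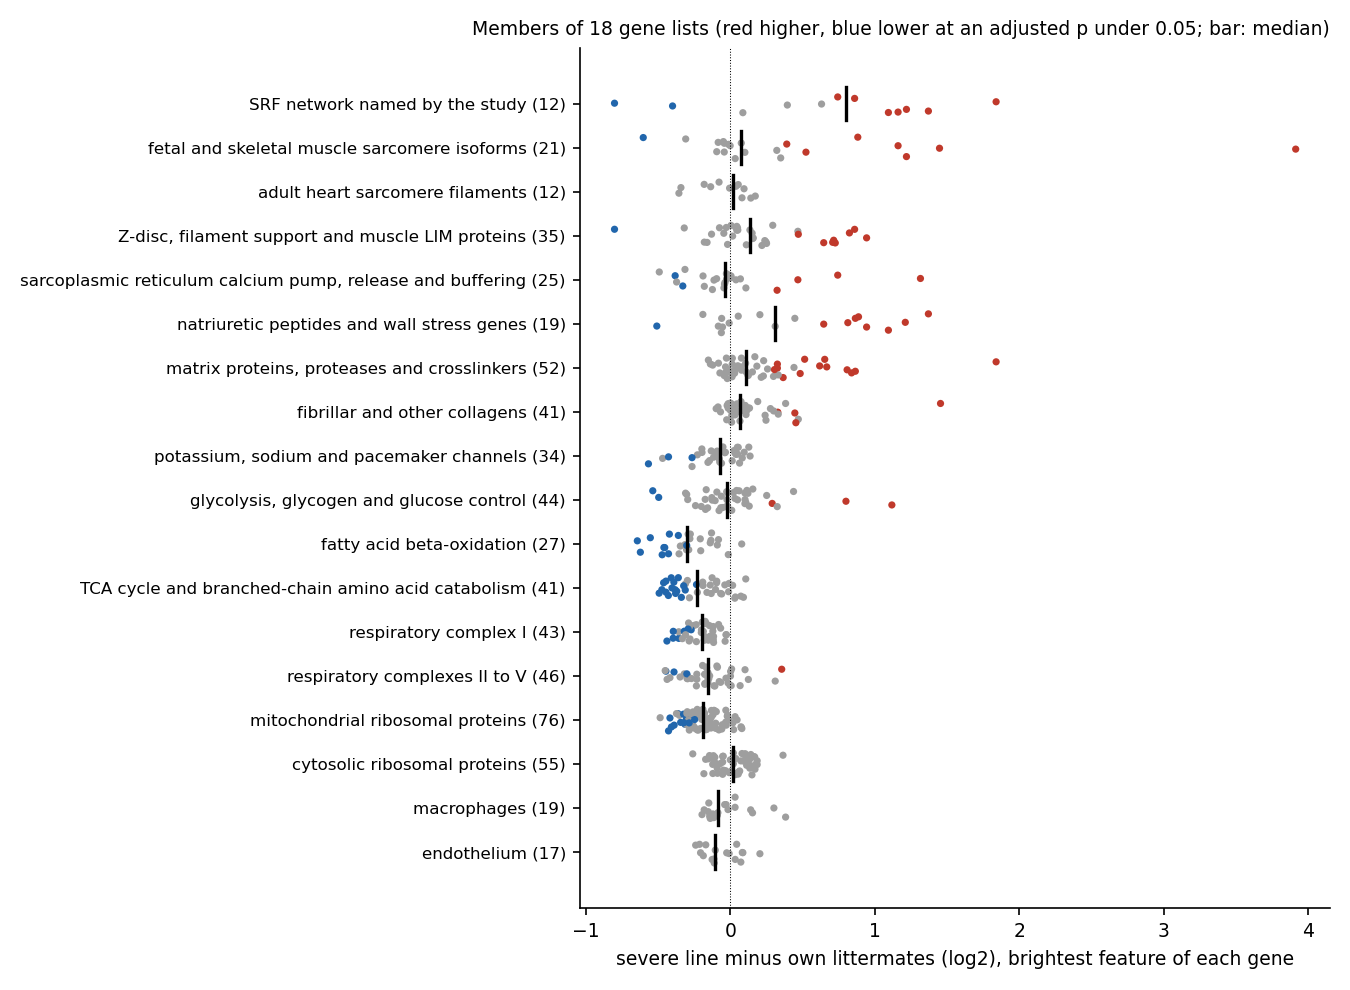
Difference of each member of 18 gene lists between the severe line and its littermates (x axis, log2, brightest feature of each gene), with members called higher in red and lower in blue, a black bar at each list's median, and the number measured in brackets. Called members of the SRF network and matrix lists lie mostly to the right of 0 and those of the mitochondrial lists to the left, while adult filaments and cytosolic ribosomal proteins sit around 0 with no call.

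Genes of wall stress rose in part. Of 19 measured, 8 were higher and 1 was lower (47.4% called, beside 3.43% of all genes, median 0.310). Nppb and Rcan1 among the higher ones are also counted in the SRF network. On leaving out 1 array 5 to 7 were higher, and under median scaling 3 were higher and 3 lower. Nppb, the B-type natriuretic peptide, read 12.24, 12.34 and 12.51 in the littermates and 13.13, 13.02 and 14.22 in the severe line, with severe line mouse 3 well above the others. The difference was 1.09 ± 0.25 (adjusted p = 0.0299), and it did not pass without severe line mouse 3 (0.71, adjusted p = 0.0629) or any 1 littermate (0.103, 0.0735 and 0.0528). Nppa, the A-type peptide, was at the top of the scale in both groups, 14.98, 14.89 and 14.92 against 14.98, 14.92 and 14.87 (adjusted p = 0.978). Tnfrsf12a, the receptor for the cytokine TWEAK, rose from 9.02, 9.02 and 9.34 to 10.13, 10.02 and 10.86 (1.21 ± 0.20, adjusted p = 0.00337). Uchl1, a deubiquitinating enzyme better known from neurons, went from 7.14, 7.26 and 7.25 to 7.88, 8.09 and 8.35 (0.89 ± 0.098, adjusted p = 1.3e-04). The member that fell, Corin, whose list had 0 or 1 lower on leaving out 1 array, is the protease that activates the natriuretic peptides, at 11.47, 11.84 and 11.79 against 11.05, 11.05 and 11.46 (adjusted p = 0.0162).

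Of 52 matrix proteins, proteases and crosslinkers, 13 were higher, none was lower and 39 did not pass, with a median of 0.106. The called share was 25%, beside 3.43% of all genes. Of 41 collagens 4 were higher and none lower (9.76% called, median 0.066). The collagen count was 1 higher under median scaling and 1 higher with an offset of 16 in the background correction. The matrix count was 6 to 12 on leaving out 1 array, 7 with the 6 arrays of the severe line alone, and 6 higher with 1 lower under median scaling, where the list's median was 0.011. Ccn2 (CTGF), a matrix-bound growth factor that drives scarring, read 10.80, 11.06 and 11.23 in the littermates and 12.89, 12.50 and 13.23 in the severe line (1.84 ± 0.15, 3.58-fold, adjusted p = 4.3e-06). Col8a1, a short-chain collagen of vessel walls, rose from 8.46, 8.52 and 8.40 to 10.13, 9.66 and 9.96 (1.46 ± 0.099, 2.74-fold, adjusted p = 9.3e-07). Scx, a transcription factor of tendons that turns on collagen genes, went from 7.33, 7.07 and 6.88 to 8.66, 8.16 and 8.28 (1.27 ± 0.12, adjusted p = 3.4e-05).

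Other matrix genes called higher changed by less than 2-fold. Mfap5, a microfibril protein, read 10.61, 10.17 and 10.54 in the littermates and 11.29, 11.34 and 11.19 in the severe line (0.84 ± 0.12, adjusted p = 0.00121). Mfap4, of the same fibers, was 0.81 ± 0.15 higher (adjusted p = 0.00732), and Lox, the enzyme that crosslinks collagen and elastin, was 0.65 ± 0.085 higher (adjusted p = 5.8e-04), with severe line values of 8.31 to 8.35 against 7.52 to 7.83. Timp1, an inhibitor of matrix proteases, had a larger spread, 8.45, 8.42 and 8.14 against 9.59, 9.26 and 8.76 (0.87 ± 0.20, adjusted p = 0.0316), and passed only without severe line mouse 3 among the runs that left out 1 array (the others gave 0.159, 0.0866, 0.0584, 0.0584 and 0.114). Col1a1, the main fibrillar collagen, was 0.45 higher (adjusted p = 0.0422) with overlapping groups, a call lost without severe line mouse 1 (0.18), severe line mouse 2 (0.112), littermate 2 (0.135) or littermate 3 (0.154). In TGF beta and BMP signaling 3 of 40 were higher and none lower (7.5% called, beside 3.43% of all genes, median 0.020, and -0.025 under median scaling). Among those higher were the ligand Tgfb2 (7.32, 7.24 and 7.01 against 7.61, 7.65 and 7.94, adjusted p = 0.00371) and Ltbp3, which stores it in the matrix (adjusted p = 0.00206, and 0.0942 under median scaling).

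Markers of other cell types were read beside these lists. Of 14 fibroblast markers 2 were called (14.3%, beside 3.43% of all genes), Mfap5 and Col1a1, both also counted above, and none was lower, with a median of 0.201. Under median scaling 1 was called and the median was 0.023. The summed linear signal of the 14 was 11663 to 12352 in the littermates and 14248 to 15343 in the severe line, without overlap, and 12 of the 14 differences were above 0, from -0.327 to 0.839. Pdgfra and Tcf21, which define the cell type, differed by 0.138 and 0.162 without a call, Dcn by 0.298 and Postn, at the level of dim probes, by 0.029. The 10 smooth muscle markers summed to 13315 to 15359 and 17919 to 20554, with Des, Tagln and Acta2 called higher and the other 7 markers not called. Of these Myh11, at 7.36 in the littermates, differed by 0.046, and Cnn1, at 6.47, was at the level of dim probes. The 12 skeletal muscle markers summed to 9455 to 12121 in the littermates and 12474 to 14096 in the severe line, with the most signal from Ckm and Myl1, which heart tissue also expresses, and of the defining markers Myh1, Myh4, Actn3, Mylpf and Myod1 were at the level of dim probes in the littermates (6.36 to 6.65) with differences of -0.064 to 0.075. The part of fibroblast and smooth muscle content in the matrix and contractile results was not tested. Sums for macrophages (9983 to 11217 against 9933 to 13238, 0 of 19 markers called), the cardiomyocyte (151150 to 156057 against 151857 to 154070, Ryr2 the only call of 11) and the red blood cell list overlapped. Endothelial markers gave no call of 17, though their sums were lower without overlap (12348 to 13488 against 12227 to 12288). Sums were also apart for ventricular myocardium (55357 to 59287 against 60221 to 64106, no call), lung and airway (3417 to 3682 against 2720 to 3167, Hopx the only call) and pancreas (1773 to 4371 against 1611 to 1716, no call). Under median scaling 5 cardiomyocyte, 5 endothelial and 3 macrophage markers were lower (medians -0.278, -0.250 and -0.142), and 1 smooth muscle marker was higher.

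Growth signaling genes were called in both directions. Of 38 insulin-like growth factor and growth signaling genes, 5 were higher and 3 were lower (21.1% called, beside 3.43% of all genes, median 0.022). There were 3 to 5 higher and 1 to 2 lower on leaving out 1 array, and 0 higher and 4 lower under median scaling (median -0.069). Eif4ebp1, the repressor of cap-dependent translation that mTOR switches off, rose from 10.28, 10.40 and 10.45 to 10.99, 10.95 and 11.02 (0.61 ± 0.078, adjusted p = 5.2e-04, and 0.0637 under median scaling or 0.269 against the 6 pooled wild type arrays). Hbegf, a growth factor of the EGF family, rose from 8.28, 8.10 and 8.06 to 8.70, 8.68 and 8.82 (adjusted p = 0.00506, and 0.0751 under median scaling), whereas Fgf16, a growth factor made by heart muscle, fell from 7.52, 7.66 and 7.65 to 7.12, 7.10 and 6.85 (-0.59 ± 0.087, adjusted p = 0.00152). Cdkn1a, the cell cycle inhibitor p21, rose from 7.48, 7.61 and 7.62 to 8.31, 8.35 and 8.54 (0.83 ± 0.13, adjusted p = 0.00198), 1 of 2 calls among 55 cell cycle genes. Gpx3, a secreted glutathione peroxidase, rose from 11.13, 10.87 and 10.99 to 11.95, 11.92 and 12.05, just under 2-fold (0.97 ± 0.066, adjusted p = 9.3e-07). Hspb1, the small heat shock protein of muscle, was 0.88 ± 0.083 higher (adjusted p = 2.9e-05) in a list of 42 chaperones with 1 higher and 2 lower, the latter being the mitochondrial Hspd1 and Hspa9 (-0.37 and -0.29, adjusted p = 0.0171 and 0.0342), which lost their calls on leaving out 3 and 6 of the 6 arrays in turn.

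Mitochondrial genes leaned lower, by small steps spread over many genes. In 5 joined lists of mitochondrial genes, covering complex I, complexes II to V, fatty acid oxidation, the TCA cycle with branched-chain amino acid breakdown, and mitochondrial ribosomal proteins, 231 genes were measured, 52 were lower and 1 was higher. Lower calls thus made up 22.5% of these genes, against 1.59% of all genes and 6.89% of the 2556 genes above the 90th percentile of brightness, which these lists resemble in level. The median difference was -0.192, or 1.14-fold, and 209 of 231 (90.5%) lay below 0, against 52.2% of those bright genes. In 113 of 231 (48.9%) the severe line arrays were all below the littermate arrays, against 17.4% of the bright genes. Not every mitochondrial change was down: Atpif1, an inhibitor of the ATP synthase, read 12.93, 12.90 and 12.93 against 13.29, 13.20 and 13.34 (0.36, adjusted p = 0.00447), a rise that was gone under median scaling (-0.00, adjusted p = 0.991). With the features of a gene averaged it was 0.12 and did not pass (adjusted p = 0.256).

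Fatty acid oxidation had the lowest median of the 5, -0.303, with 10 of 27 genes lower and none higher. Slc25a20, the carrier of acylcarnitines into mitochondria, read 10.33, 10.0 and 10.07 in the littermates and 9.45, 9.74 and 9.28 in the severe line (-0.64 ± 0.11, 1.56-fold lower, adjusted p = 0.00408). Etfdh, which passes electrons from fatty acid oxidation to the respiratory chain, fell from 10.51, 10.63 and 10.20 to 9.74, 9.91 and 9.82 (-0.62 ± 0.10, adjusted p = 0.00275). Its smallest fall among the alternatives was -0.25. Cpt2, the inner carnitine palmitoyltransferase, fell from 11.61, 11.77 and 11.61 to a mean of 11.11 (SD 0.14) without overlap (-0.55 ± 0.094, adjusted p = 0.00378). These 3 calls stood in all 18 alternatives, whereas the heart's outer transferase Cpt1b was only 0.14 lower with overlap (adjusted p = 0.547). Upstream, Slc27a1, a fatty acid transporter of the cell surface, fell from 8.23, 8.05 and 8.16 to 7.65, 7.76 and 7.59, Dgat2, which makes triglycerides, fell from 11.11, 10.62 and 11.24 to 9.94, 10.15 and 10.34, and Ces1d, a lipase, fell from 10.71, 10.77 and 11.11 to 9.76, 10.29 and 10.05 (adjusted p = 0.00121, 0.00228 and 0.00383). They were 3 of 4 lower genes among 38 of fatty acid uptake and storage, where none was higher (10.5% called, beside 3.43% of all genes). Under median scaling 8 of the 38 were lower. The summed signal of 13 markers of adipose tissue was 19278 to 20427 in the littermates and 17025 to 18463 in the severe line with no marker called, Adipoq and Ucp1 differing by -0.367 and -0.817, and its part in these falls was not tested. Rxrg, a nuclear receptor partner of the PPARs, was 0.49 ± 0.068 lower (adjusted p = 0.00101).

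The TCA cycle and branched-chain amino acid list had 17 of 41 genes lower and none higher (median -0.229). Fh1, fumarate hydratase, read 11.24, 11.45 and 11.10 in the littermates and 10.66, 10.80 and 10.85 in the severe line (-0.49 ± 0.091, adjusted p = 0.00693), but did not pass with an offset of 16 in the background correction (0.0741). Ppm1k, the phosphatase that activates branched-chain amino acid breakdown, fell from 8.88, 8.72 and 8.93 to 8.46, 8.37 and 8.27 (-0.47 ± 0.073, adjusted p = 0.00202). Of genes outside the list, Dlat, a subunit of pyruvate dehydrogenase, fell from 10.30, 10.48 and 10.19 to 9.64, 9.70 and 9.76 (-0.62 ± 0.073, adjusted p = 2.2e-04), and Gpt, an alanine transaminase, fell from 9.01, 8.86 and 9.05 to 8.34, 8.36 and 8.30 (-0.64 ± 0.067, adjusted p = 8.4e-05). Sirt5, a mitochondrial enzyme that strips acyl groups from lysines, was 0.51 lower (adjusted p = 6.2e-04).

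In the respiratory chain the shifts were smaller and more uniform. All 43 complex I genes were below 0, between -0.44 and -0.03, and 7 were called (median -0.195). Ndufs8, an iron-sulfur subunit, read 12.80, 12.82 and 12.78 in the littermates and 12.26, 12.51 and 12.31 in the severe line (-0.44 ± 0.064, adjusted p = 0.00133). Ndufa8 went from 12.86, 12.71 and 12.81 to 12.29, 12.44 and 12.44 (-0.40 ± 0.064, adjusted p = 0.00261), and the complex II subunit Sdhb from 11.68, 11.70 and 11.48 to 11.09, 11.21 and 11.22 (-0.45 ± 0.071, adjusted p = 0.0024). With the offset of 16 these 3 did not pass (adjusted p = 0.0681, 0.102 and 0.0645). In complexes II to V 3 of 46 genes were lower and 1 was higher (median -0.158), and 16 of 76 mitochondrial ribosomal proteins were lower and none higher (median -0.188). By contrast none of 55 cytosolic ribosomal proteins was called, their median being 0.020 (and -0.227 under median scaling, with 12 lower). The 47 proteasome subunits gave 1 call each way (median -0.010). Under median scaling 0 of them were higher and 8 were lower (median -0.180).

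The counts of these lists changed with the processing, while each list's median stayed below 0 in the settings given here. Leaving out 1 array at a time gave 2 to 9 lower complex I genes, 1 to 4 for complexes II to V, 4 to 9 for fatty acid oxidation, 7 to 16 for the TCA list and 2 to 11 for mitochondrial ribosomal proteins. A background correction with a smaller offset (16 in place of 50) left 0 for complex I and for complexes II to V, 3 for fatty acid oxidation, 2 for the TCA list and 0 for mitochondrial ribosomal proteins. Without severe line mouse 1 the complex I count was 2 and that of fatty acid oxidation 4. Under median scaling, which lowered bright features as a whole, 28, 28, 19, 23 and 47 were lower in complex I, complexes II to V, fatty acid oxidation, the TCA list and mitochondrial ribosomal proteins. Relative to the brightest 5% of features the medians of complex I, complexes II to V, fatty acid oxidation, the TCA list and mitochondrial ribosomal proteins were -0.192, -0.154, -0.300, -0.225 and -0.184 in the deposited values and -0.216, -0.180, -0.307, -0.179 and -0.143 under median scaling. Array by array, the median deviation of complex I from the littermate mean was 0.038, -0.058 and 0.008 in the littermates and -0.291, -0.136 and -0.194 in the severe line. Each of the 5 lists had its severe line arrays below its littermate arrays, with severe line mouse 1 the lowest in each. In the promoter windows of 199 genes of these lists the NRF1 element was found in 6.03% against 1.6% of all and the ETS element in 25.6% against 13.8%, while none held a CArG box.

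**Figure D4:**
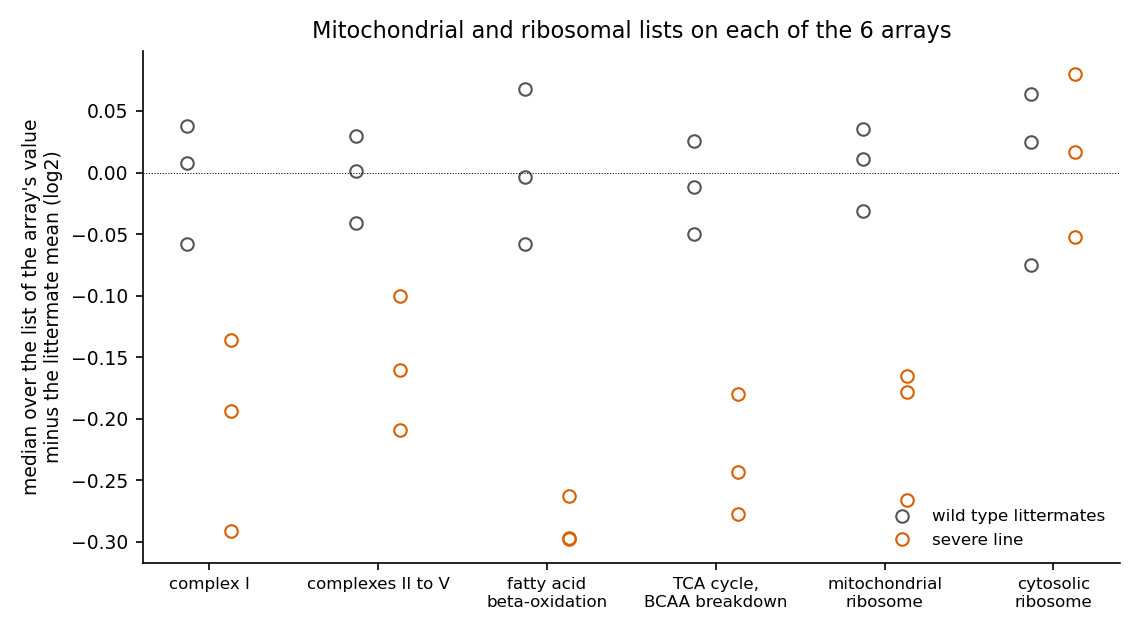
Median over each list of the array's value minus the littermate mean (y axis, log2), 1 circle per array, with littermates in gray and the severe line in orange. For complex I, complexes II to V, fatty acid oxidation, the TCA list and mitochondrial ribosomal proteins the 3 severe line circles lie below the 3 littermate circles, and for cytosolic ribosomal proteins they overlap.

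Other fuels showed single changes. Nmrk2, the muscle kinase that makes NAD from nicotinamide riboside, rose from 7.42, 7.56 and 7.19 to 9.49, 9.05 and 9.28 (1.88 ± 0.13, 3.69-fold, adjusted p = 9.3e-07). Eno2, an enolase isoform best known from neurons, rose from 7.18, 7.30 and 7.15 to 8.29, 8.16 and 8.53 (1.12 ± 0.089, adjusted p = 4.3e-06), and Pfkp, a phosphofructokinase, from 8.33, 8.23 and 8.23 to 8.99, 9.10 and 9.08 (0.80 ± 0.076, adjusted p = 2.9e-05). Pygl, a glycogen phosphorylase, was 0.54 lower (adjusted p = 0.00116, and 0.105 against the 6 pooled wild type arrays). Of 44 glycolysis and glycogen genes 3 were higher and 2 lower in all (11.4% called, beside 3.43% of all genes), and 2 and 12 under median scaling. Of 11 genes of creatine kinases, creatine supply and myoglobin, 3 were higher and 1 was lower (36.4% called, beside 3.43% of all genes, median -0.017). Under median scaling 2 were higher and 5 lower. The higher ones were Ckb, the brain creatine kinase, at 12.16, 12.14 and 12.24 against 13.17, 12.93 and 13.08 (0.89 ± 0.079, adjusted p = 1.4e-05), together with the creatine transporter Slc6a8 (0.55, adjusted p = 0.00138, and 0.0572 under median scaling) and the creatine-making enzyme Gamt (0.47, adjusted p = 0.00225). The lower one was Ampd3, an AMP deaminase (-0.52, adjusted p = 0.0151). The 7 ketone body genes gave no call.

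Some genes of skeletal muscle development rose too. Of 28 measured, 4 were higher and 1 was lower (17.9% called, beside 3.43% of all genes, median 0.038). Klhl40, a protein of the skeletal muscle thin filament, rose from 7.39, 7.52 and 7.72 to 8.61, 8.58 and 8.11 (0.89 ± 0.11, adjusted p = 3.3e-04). Ncam1, an adhesion molecule of embryonic muscle and nerve, was nearly constant in the littermates at 6.92, 6.92 and 6.91 and reached 7.70, 7.38 and 7.70 (0.68 ± 0.075, adjusted p = 1.4e-04). Tubb2b, a tubulin, was 0.60 ± 0.066 higher (adjusted p = 1.3e-04) and the only call of 30 tubulin and microtubule genes.

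Further falls were in genes outside the lists above. Gpr22, a G protein-coupled receptor of heart and brain, read 9.07, 9.43 and 9.46 in the littermates and 8.12, 8.29 and 8.39 in the severe line (-1.06 ± 0.12, 2.08-fold lower, adjusted p = 1.5e-04). It was the one fall past 2-fold. Ift81, a protein of ciliary transport, lay just inside that limit, from 10.29, 10.37 and 10.29 to 9.26, 9.38 and 9.32 (-1.0 ± 0.065, adjusted p = 5.8e-07). Ano10, one of the anoctamins, went from 9.33, 9.29 and 9.45 to 8.43, 8.63 and 8.21 (adjusted p = 0.00564), Il15, a cytokine, from 8.75, 8.51 and 8.70 to 7.87, 8.18 and 7.80 (adjusted p = 0.00414), and Mlf1 from 11.52, 11.74 and 11.36 to 10.75, 10.84 and 10.99 (adjusted p = 0.00185). The difference of Ano10 was -0.93, and its smallest fall among the alternatives was -0.28. The interferon-induced GTPases Irgm2 and Igtp were 0.66 and 0.52 lower (adjusted p = 0.001 and 0.00679), while of 41 interferon and antigen presentation genes Igtp was the only one called. Under median scaling 6 of these 41 were lower. Tfrc, the transferrin receptor through which cells take up iron, was 0.54 lower (adjusted p = 0.00564). Irgm2, Igtp and Tfrc did not pass against the 6 pooled wild type arrays (adjusted p = 0.137, 0.105 and 0.549). Among the rises outside the lists, 2310002L09Rik went from 6.67, 6.76 and 6.73 to 9.11, 9.21 and 9.36 (2.51 ± 0.076, 5.68-fold, adjusted p = 5.5e-11), Rab15, a GTPase of endosomes, from 7.49, 7.64 and 7.66 to 8.99, 8.75 and 9.0, and Ildr2 from 7.33, 7.48 and 7.45 to 8.69, 8.53 and 8.94 (adjusted p = 1.1e-06 and 1.3e-06).

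The mild line, tested against its own littermates, had 765 calls (2.48%), and the lines share no control array. Of the 404 features higher in the severe line 171 (42.3%) were also called higher in the mild line, which is 48.9% of the 350 higher there. Of the 350 lower in the severe line 141 (40.3%) were also lower in the mild line, 34.0% of the 415 lower there. A call in 1 line only does not show a difference, so the difference of the changes was itself tested. It was called for 85 features (0.275% of 30854), of which 42 were among the 754 called in the severe line (5.57% of them). Of the 85, 63 were higher in the severe line's change and 22 lower, and under median scaling 84 were called, 29 higher and 55 lower, 48 of them shared. In the joined mitochondrial lists the median was -0.192 in the severe and -0.073 in the mild line, with 52 and 23 lower. Fatty acid oxidation alone went the other way, at -0.303 in the severe and -0.373 in the mild line, with 10 and 15 lower. Complex I was at -0.195 and -0.039, with 7 and 0 lower. For complexes II to V the medians were -0.158 and -0.029, and for the TCA list -0.229 and -0.139. For mitochondrial ribosomal proteins they were -0.188 and -0.049. The difference between the lines was called for none of the 231 genes.

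The difference was called for several of the contractile genes above. Tpm3 was 2.0 higher in the severe and 0.03 higher in the mild line on the same feature (difference 1.97, adjusted p = 1.3e-07). Tnnt1 rose 3.92 in the severe and 1.94 in the mild line (difference 1.98, adjusted p = 2.0e-04), and Ppp1r1a rose 1.95 and 1.0 (difference 0.95, adjusted p = 0.00619). Sypl2, Ildr2 and Pde1b, a calcium-dependent phosphodiesterase, rose 1.32, 1.30 and 0.79 in the severe line and 0.16, 0.18 and 0.01 in the mild line (difference adjusted p = 5.4e-04, 6.1e-04 and 4.7e-04). Gpx3 rose 0.97 and 0.19 (adjusted p = 8.0e-04). For Rcan1, Dusp26, Nmrk2, Acta1 and Celf4 the changes were 2.17 and 1.83, 2.08 and 2.52, 1.88 and 2.0, 1.22 and 1.37, and 4.95 and 5.06, and none of these differences passed (adjusted p = 0.867, 0.476, 0.949, 0.88 and 0.95).

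In the other direction, several genes that fell in both lines fell less in the severe line. Fhl2 was at -0.80 in the severe and -1.6 in the mild line (difference 0.80, adjusted p = 0.00115), Lrtm1 at -0.76 and -2.18 (1.42, adjusted p = 1.5e-05), Ces1d at -0.82 and -1.98 (1.16, adjusted p = 0.0175) and Ryr2 at -0.33 and -1.20 (0.87, adjusted p = 8.0e-04). Hopx was the extreme, at -0.40 and -3.03 (difference 2.63, adjusted p = 3.1e-08). Mybphl, Myom2 and the atrial myosin light chain Myl7 were at -2.97, -2.20 and -1.81 in the mild line, but at -0.11, 0.054 and -0.31 in the severe line with overlapping groups (difference adjusted p = 3.0e-07, 4.3e-06 and 0.00814). The difference was called for 3 of 11 atrial markers. Features lower in the mild line alone made up 29 of the 85 differences, those higher in the severe line alone 17, those higher in the mild line alone 13, those lower in both 12, those higher in both 7 and those lower in the severe line alone 4, with 2 opposite and 1 called in neither. Pygl and Erdr1 went opposite ways: Pygl was -0.54 in the severe and 0.43 in the mild line (difference -0.97, adjusted p = 4.1e-04) and Erdr1 -0.84 and 0.41 (-1.24, adjusted p = 0.00964), the mild line's own change in Erdr1 not passing (adjusted p = 0.205).

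**Figure D5:**
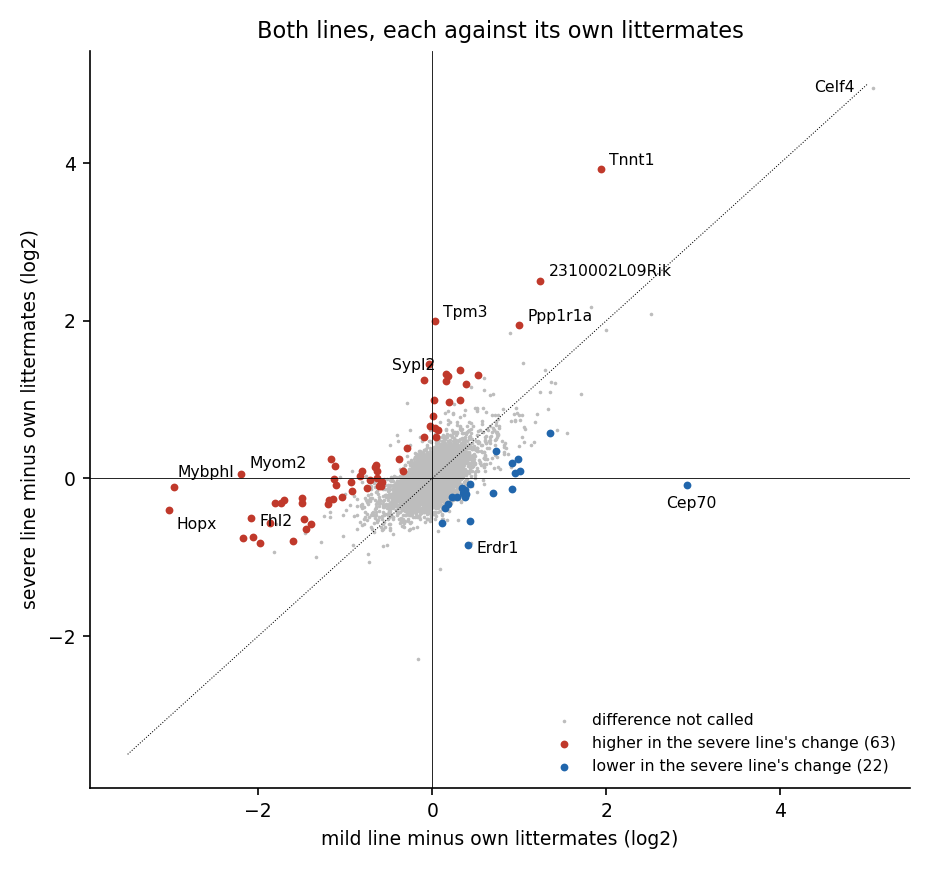
Change of each feature in the severe line (y axis, log2) against its change in the mild line (x axis, log2), each line against its own littermates, with features whose difference was called in red (higher in the severe line's change, 63) and blue (lower, 22) and the line of equal change dotted; median scaling gave 29 and 55. Celf4 lies on the dotted line, Tnnt1 and Tpm3 above it, and Hopx, Mybphl and Myom2 at the far left with small changes in the severe line.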

How the data were processed

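Biotin-labeled RNA of 12 hearts was hybridized to Illumina mouse bead arrays, 1 array per sample, and the 6 arrays of the severe line and its littermates are described here. The authors' deposited raw files hold 1 bead intensity per probe. The authors' deposited series table holds log2 values, which the study's methods describe as background corrected and quantile normalized. The submitters' processing notes name GenomeStudio and limma without versions. The method of background correction, detection p-values, slides and scan dates are not given in the sources used here. Precision is limited by how many arrays each group has.

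The 45281 probe IDs were merged where their rows were identical, leaving 30854 features. Of the IDs, 34885 had 1 symbol, 18 several and 10378 none, and only features with 1 symbol were named (22203 features, 19013 genes). In 3 raw files 6 lines without an ID were left out. The log2 table was fitted with limma 3.58.1 (R 4.3.3) on 4 group means over 12 arrays, which share 1 spread, with Benjamini-Hochberg adjustment over all features. The contrasts were severe line minus its littermates and that change minus the mild line's. A call is an adjusted p under 0.05. The 2-fold rule, from the study's methods, takes features that moved at least 2-fold and had either an adjusted p below 0.05 or an unadjusted p below 0.001. Errors after ± are standard errors of the fit. The fit was tested on simulated arrays with known changes in features above the median level, 50 of each size. It called 44.0% of 1.25-fold, 98.0% of 1.5-fold and 100.0% of 2-fold changes. A shift near 1.25-fold that was not called may thus still be present. Other steps used Python 3.11.15, pandas 2.3.3, numpy 2.4.6 and matplotlib 3.10.9.

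Gene lists (49 by function, 20 of cell markers) were read at each gene's brightest feature. Named genes were the 15 largest rises and falls with no overlap, up to 6 called members of each list or the 2 brightest of a list with none, the SRF network and CELF family, the 8 largest differences between lines each way, the 10 lowest adjusted p each way under 2-fold, and 3 label checks. Myh7, Myh6, Pln, Atp2a2, Corin, Pdgfra, Tcf21, Dcn, Postn, Myh11, Cnn1, Adipoq, Ucp1 and Ampd3 were added after their values were seen, and the list members named without statistics likewise. The members and lists were chosen with earlier results of these data known. Promoter windows came from RefSeq (GRCm38.p6).

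Alternatives were the 6 arrays alone, 6 pooled wild type arrays, a replicate block, array weights, trended and robust variances, no merging, averaging per gene, bright features only, other normalizations of the raw intensities (none of the background, offsets of 50 and, added after seeing the data, 16, or median scaling), other thresholds, and each array left out.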

Additional observations from a re-analysis of the deposited data

Results flagged for a closer look

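The change in the severe line differed from that in the mild line by the test of the difference itself for 32 of the features examined singly, each line against its own littermates (limma, log2, severe minus mild). The difference was positive for Mybphl (2.86), Hopx (2.63), Myom2 (2.25), Tnnt1 (1.98), 2 Tpm3 features (1.97 and 1.49), 2 Fhl2 features (0.80 and 1.58), Myl7 (1.5), Lrtm1 (1.42), 2310002L09Rik (1.26), Sypl2 and Ces1d (1.16 each), Ildr2 (1.12), AW551984 (1.06), Ppp1r1a (0.95), Ryr2 (0.87), Lamb3 (0.81), Rab15, Gpx3 and Pde1b (0.78 each), Acta2 (0.68) and 2900055J20Rik (0.67). It was negative for Cep70 (-3.01), Erdr1 (-1.24), Pcp4l1 (-1.06), Pygl (-0.97), Bdh1 (-0.92), Tesc and Nqo1 (-0.88 each), Scgb1c1 (-0.78) and Asb10 (-0.67). Cep70 was at 6.35 to 6.58 on all 6 arrays of the severe line and its littermates and 2.93 higher in the mild line alone. Bdh1, Pcp4l1, Tesc and Nqo1 likewise rose in the mild line (1.01, 0.92, 0.70 and 0.95) and were not called in the severe line (0.095, -0.14, -0.18 and 0.07).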

How the results depend on the processing

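The number of features called in the severe line was 754. It was 455 with the 6 arrays alone, 1516 without merging IDs, 1257 under median scaling (172 higher, 1085 lower) and 290 with an offset of 16, which was added once the data had been seen. At an adjusted p under 0.01 it was 359 and under 0.10 1165. Leaving out 1 array gave 435 to 688, the lowest without severe line mouse 1. The 31 features past 2-fold became 59 with the offset of 16 and 30 to 36 on leaving out 1 array, and the 85 differences between the lines became 38 with that offset and 67 to 82 on leaving out 1 array. Median scaling left their number at 84 but turned the balance from 63 higher and 22 lower to 29 and 55. No sign of pairing by replicate number was seen. Deviations of same-numbered arrays correlated at -0.18, -0.38 and 0.02 in the severe line and 0.11, -0.03 and -0.08 in the mild line. Arrays of different numbers gave -0.18 to 0.33 and -0.17 to 0.21. Deviations from means of only 3 arrays cannot exclude pairing, and the labels do not state it. A fit with the replicate number as a block was therefore run only as a check. It gave 565 calls in the severe line, 522 of them shared with the fit without the block, 32 past 2-fold and 54 differences. Under median scaling 2 named changes reversed, Atpif1 (-0.00, adjusted p = 0.991) and Rplp1 (-0.26, adjusted p = 0.0293), and averaging a gene's features gave all Celf4 features the mean of 1.25. Of 177 named features called, 74 were called under all 18 alternatives and 103 lost the call under at least 1. The causes were not tested, except that fewer arrays, unmerged IDs, thresholds and averaging act by construction. Dim probes, near the common floor of the table, limit what can be seen below the median.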
